A study of Homo sapiens with 83 samples.

Results

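The genes described here are 10 genes of the unfolded protein response (UPR) and of protein folding in the endoplasmic reticulum (ER): XBP1, ATF6, ERN1, HERPUD1, EDEM1, SEL1L, CALR, CANX, PDIA4 and PDIA6. They were chosen by name, with earlier results of these data known. Each of the 10 symbols was listed once among the 60237 genes of the expression table, and all 10 had a mean of at least 1 TPM (transcripts per 1000000, a level already divided by gene length) in both cell lines.

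RNA sequencing had been carried out on 83 libraries of polyadenylated RNA from human neuroblastoma lines, in a study of what N-MYC activation does to transcript levels and their circadian rhythm. All cells, controls included, carried N-MYC-ER, in which N-MYC is joined to the hormone-binding part of the estrogen receptor and stays inactive until 4-hydroxytamoxifen (4OHT) is given. The 2 lines, SHEP and SKNAS, received ethanol, the vehicle (MYC-OFF), or 4OHT (MYC-ON) for 24 h. All 4 groups were then given dexamethasone, to bring their clocks into step, and RNA was collected every 4 h from circadian time (CT) 24 on.

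SHEP MYC-OFF and SHEP MYC-ON each held 28 libraries, from 2 time series of 14 time points up to CT76. SKNAS had a single series here, with 14 MYC-OFF and 13 MYC-ON libraries, the latter up to CT72. Time points of a series come from 1 experiment, so a p-value over them measures the spread between time points. Activation of the fusion acts on the protein. The MYC labels were not checked here against transcripts of N-MYC targets. Depth per library is unknown, because TPM sum to the same total everywhere. The median over genes of log2(TPM + 1) lay between 3.93 and 4.17 in every SHEP library, but between 2.97 and 4.38 in SKNAS MYC-OFF and between 2.76 and 4.26 in SKNAS MYC-ON. This median was at least 3.8 in 10 of the 14 SKNAS MYC-OFF libraries and 3 of the 13 SKNAS MYC-ON libraries, and the SKNAS results are given with and without the others. Of 7 adrenergic neuroblastoma markers, 2 in SHEP and 4 in SKNAS reached a mean of 1 TPM in both conditions. Of 7 mesenchymal markers, at least 6 did so in every group.

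Proteins that enter the ER are folded there by chaperones, receive sugar chains and disulfide bonds, and are sent back to the cytosol for degradation when folding fails. The UPR watches over this. IRE1, encoded by ERN1, removes a short intron from XBP1 mRNA so that the transcription factor XBP1 is made. ATF6 is cut free from the membrane in the Golgi and enters the nucleus, and PERK, encoded by EIF2AK3, slows translation and raises ATF4. XBP1 and ATF6 act on ER stress response elements in the promoters of chaperone and degradation genes. CALR and CANX encode calreticulin and calnexin, lectin chaperones that bind unfinished glycoproteins, and PDIA4 and PDIA6 are disulfide isomerases. HERPUD1, EDEM1 and SEL1L serve ER-associated degradation (ERAD): HERPUD1 helps to assemble the membrane complex, EDEM1 trims mannose from misfolded glycoproteins, and SEL1L is the partner of the ubiquitin ligase SYVN1. The gene-level TPM of XBP1 sums its spliced and unspliced forms, so splicing was not measured.

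The 10 genes lie on 10 chromosomes (Gencode 44, GRCh38). CALR spans bases 12938578 to 12944489 of chromosome 19, CANX bases 179678628 to 179731641 of chromosome 5, and HERPUD1 bases 56932142 to 56944864 of chromosome 16, all on the plus strand. ATF6 spans 161766298 to 161977574 of chromosome 1 and EDEM1 5187646 to 5219958 of chromosome 3, also on the plus strand. On the minus strand, XBP1 spans 28794555 to 28800597 of chromosome 22, ERN1 64039080 to 64130819 of chromosome 17 and SEL1L 81471547 to 81533853 of chromosome 14. PDIA4 spans 149003062 to 149028662 of chromosome 7 and PDIA6 10783391 to 10837977 of chromosome 2, on the minus strand as well.

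Promoters of the genes were searched on both strands for the letters of the ER stress elements, in RefSeq windows (GRCh38.p14) that run from 250 bases before an annotated start to 50 bases from it on. All 10 genes matched, with 16 windows. ERSE, here CCAAT and CCACG with 9 bases between them, was in 27 of 35116 windows (0.0769%), and these belonged to 25 of 27305 genes (0.0916%). XBP1, CALR, CANX and PDIA6 were 4 of these genes. ERSE-II, here ATTGG and CCACG with 1 base between them, was in 19 windows (0.0541%), and HERPUD1 was 1 of its 19 genes. The UPRE core TGACGTG was in 1.97% of windows and in none of the 10 genes. The E-box CACGTG, the motif MYC binds, was in 7.26% of windows and in HERPUD1 and CANX. The ERSE and ERSE-II matches overlapped no other motif searched in these windows. A match says only that the letters are there.

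The windows with an ER stress element are shown because they are the sequence that these members share. Capitals mark ERSE in XBP1, CALR, CANX and PDIA6, and in HERPUD1 first the E-box and then ERSE-II. XBP1 is given for chr22:28800520-28800819 (minus strand), CALR for chr19:12938359-12938658 (plus), CANX for chr5:179698679-179698978 (plus), PDIA6 for chr2:10812736-10813035 (minus) and HERPUD1 for chr16:56931892-56932191 (plus). In CALR the element lies on the opposite strand, so its capitals begin with CGTGG and end with ATTGG. Counted from the annotated start, it ran from -52 to -34 in XBP1, -225 to -207 in CALR, -151 to -133 in CANX, -86 to -68 in PDIA6 and, for ERSE-II, -117 to -107 in HERPUD1. CANX has 4 annotated starts, and the same element fell in the windows of 3 of them. PDIA6 has 2, and the element was at 1 of them.
XBP1: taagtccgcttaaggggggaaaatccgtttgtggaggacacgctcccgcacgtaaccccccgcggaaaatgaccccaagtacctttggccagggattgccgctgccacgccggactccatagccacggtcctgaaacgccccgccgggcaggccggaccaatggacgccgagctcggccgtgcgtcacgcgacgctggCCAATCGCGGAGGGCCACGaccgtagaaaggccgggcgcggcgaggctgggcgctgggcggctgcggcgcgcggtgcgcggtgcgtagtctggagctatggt
CALR: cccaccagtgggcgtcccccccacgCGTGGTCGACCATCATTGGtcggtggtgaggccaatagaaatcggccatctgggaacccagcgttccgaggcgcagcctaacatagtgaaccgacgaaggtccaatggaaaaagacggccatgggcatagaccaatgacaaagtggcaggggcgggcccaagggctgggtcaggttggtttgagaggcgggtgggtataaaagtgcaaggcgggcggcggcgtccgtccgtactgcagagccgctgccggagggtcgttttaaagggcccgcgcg
CANX: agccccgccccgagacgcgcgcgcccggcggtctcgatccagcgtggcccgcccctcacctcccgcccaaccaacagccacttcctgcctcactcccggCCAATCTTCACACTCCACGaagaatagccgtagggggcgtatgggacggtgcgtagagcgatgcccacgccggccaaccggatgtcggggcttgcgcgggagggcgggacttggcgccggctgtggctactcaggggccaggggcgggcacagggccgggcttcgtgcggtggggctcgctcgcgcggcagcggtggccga
PDIA6: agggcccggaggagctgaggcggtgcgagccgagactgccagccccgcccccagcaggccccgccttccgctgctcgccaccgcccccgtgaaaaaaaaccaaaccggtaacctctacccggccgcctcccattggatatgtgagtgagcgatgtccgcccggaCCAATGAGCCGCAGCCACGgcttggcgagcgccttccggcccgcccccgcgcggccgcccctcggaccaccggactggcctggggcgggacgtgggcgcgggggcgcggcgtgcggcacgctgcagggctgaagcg
HERPUD1: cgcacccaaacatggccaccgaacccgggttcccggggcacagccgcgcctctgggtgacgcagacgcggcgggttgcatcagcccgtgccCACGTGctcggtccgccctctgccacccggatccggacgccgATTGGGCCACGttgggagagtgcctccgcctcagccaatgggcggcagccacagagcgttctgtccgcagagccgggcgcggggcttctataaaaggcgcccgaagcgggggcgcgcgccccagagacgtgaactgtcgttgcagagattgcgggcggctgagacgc

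In SHEP, the ER folding genes fell together in MYC-ON. Of the 10 genes, 9 were called lower and 0 higher, where a call needs a limma p, adjusted over all genes tested, that does not exceed 0.05 and a change of 0.15 or more in log2(TPM + 1). Over all 14362 genes tested, 38.9% were called lower and 33.0% higher. The median difference of the 10 genes was -0.54 on the log2 scale, beside -0.04 over all genes. In 4 of the 10, EDEM1, CALR, PDIA4 and PDIA6, every MYC-ON library was below every MYC-OFF library, which held for 6.36% of all genes tested. In the pairs of libraries from the same series and time point, EDEM1, SEL1L, CALR, CANX, PDIA4 and PDIA6 were lower in MYC-ON in 28 of 28.

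**Figure D1:**
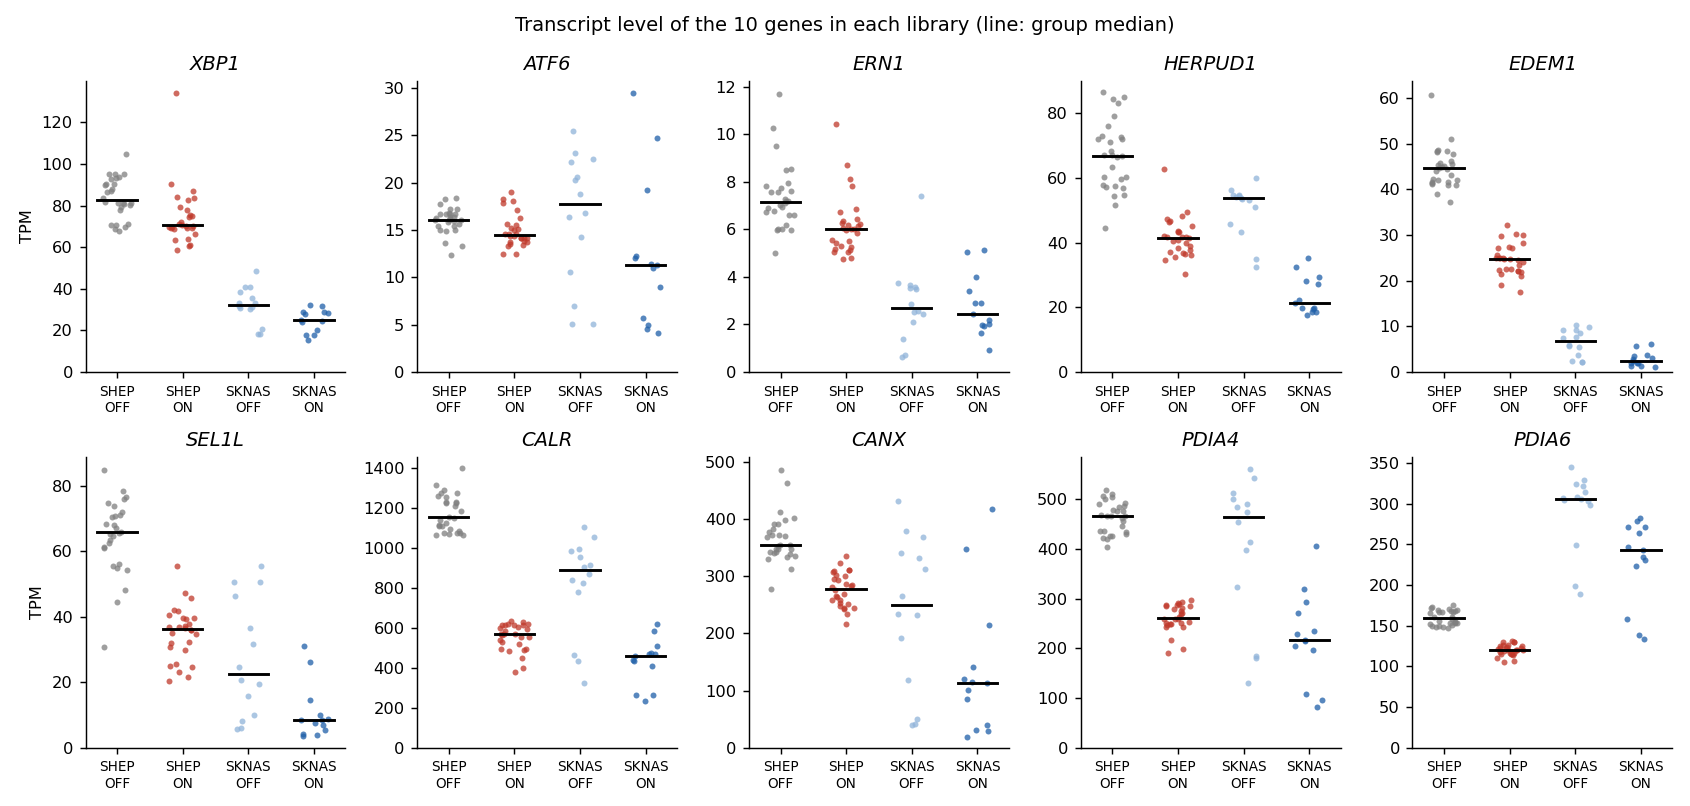
TPM (linear axis from 0) of each of the 10 genes in every library of the 4 groups, with a line at the group median. In SHEP the MYC-ON points of CALR, EDEM1, PDIA4 and PDIA6 lie wholly below the MYC-OFF points, and the SKNAS points spread more widely than the SHEP points.

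CALR, the lectin chaperone of the ER lumen and a store of calcium there, had the highest level of the 10 and the largest fall. Its TPM ran from 1066 over a median of 1155 to 1400.5 in the 28 SHEP MYC-OFF libraries, and from 380 over 570.1 to 635 in the 28 MYC-ON libraries. The groups did not overlap, and the mean in MYC-ON was 0.472 times that in MYC-OFF. The log2 difference was -1.09 ± 0.04 (SE, adjusted p = 7.55e-26, limma), and only 3.26% of the genes tested fell further. CANX, its membrane-bound relative, ran from 277 over 354 to 485 TPM in MYC-OFF and from 216 over 278 to 336 TPM in MYC-ON. The groups overlapped, through 5 MYC-OFF libraries below the highest MYC-ON library. The difference of CANX was -0.40 ± 0.04 (SE, adjusted p = 1.23e-11).

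Both disulfide isomerases separated the groups completely. PDIA4 ran from 405 over 467 to 519.7 TPM in MYC-OFF and from 191 over 262 to 297 TPM in MYC-ON, a log2 difference of -0.83 ± 0.04 (SE, adjusted p = 5.45e-24). PDIA6 ran from 147 over 159 to 175 TPM in MYC-OFF and from 105 over 120.4 to 131 TPM in MYC-ON, a smaller difference of -0.41 ± 0.02 (SE, adjusted p = 9.92e-20). Relative to its mean, PDIA6 also varied least of the 10 in SHEP, with a standard deviation of 8.78 TPM around 159.9 TPM in MYC-OFF and of 6.76 TPM around 120.2 TPM in MYC-ON.

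The ERAD genes fell by like amounts. EDEM1 ran from 37.3 over 44.6 to 60.8 TPM in MYC-OFF and from 17.5 over 24.8 to 32.2 TPM in MYC-ON, with no overlap and a log2 difference of -0.84 ± 0.04 (SE, adjusted p = 1.69e-24). SEL1L ran from 30.6 over 65.8 to 84.8 TPM in MYC-OFF and from 20.4 over 36.3 to 55.4 TPM in MYC-ON, a difference of -0.87 ± 0.08 (SE, adjusted p = 9.91e-14). SEL1L overlapped, again through 5 MYC-OFF libraries, the lowest at CT60 of series 1, and its spread was wider than that of EDEM1. HERPUD1 ran from 44.5 over 66.9 to 86.5 TPM in MYC-OFF and from 30.3 over 41.5 to 62.9 TPM in MYC-ON, a difference of -0.66 ± 0.06 (SE, adjusted p = 6.85e-14). It was lower in MYC-ON in 27 of 28 pairs, and the exception was CT76 of series 2.

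The sensors and their transcription factor moved least. ERN1, the kinase and nuclease that splices XBP1 mRNA, was the lowest of the 10, from 4.99 over 7.15 to 11.7 TPM in MYC-OFF and from 4.78 over 6.02 to 10.4 TPM in MYC-ON. Its difference was -0.22 ± 0.07 (SE, adjusted p = 0.00237), with overlapping groups, and it was not called with the library median as a covariate (-0.13, adjusted p = 0.157), without series 2 (-0.16, adjusted p = 0.145) or with series means as replicates (adjusted p = 0.09). ATF6 ran from 12.3 over 16.1 to 18.4 TPM in MYC-OFF and from 12.5 over 14.5 to 19.0 TPM in MYC-ON. Its difference of -0.10 ± 0.04 (SE, adjusted p = 0.0247) was under the size needed for a call.

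XBP1 differed between the 2 SHEP series. It ran from 67.9 over 82.7 to 105 TPM in MYC-OFF and from 58.8 over 70.6 to 134 TPM in MYC-ON, with a log2 difference of -0.18 ± 0.06 (SE, adjusted p = 0.00549). In series 1 its mean was 88.9 ± 9.0 TPM in MYC-OFF and 68.3 ± 5.74 TPM in MYC-ON (SD, n = 14 each). In series 2 the means were 78.9 ± 7.74 and 81.0 ± 17.2 TPM (SD, n = 14 each). The fit without series 1 gave 0.02 (adjusted p = 0.863), so the call for XBP1 rests on series 1. It was also lost with median-of-ratios rescaling (-0.13, adjusted p = 0.0562). When the means of the 2 series were used as the replicates, 7 of the 10 were still called lower, all but XBP1, ATF6 and ERN1.

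The order of the levels in SHEP MYC-OFF, by mean TPM, was CALR, PDIA4, CANX, PDIA6, XBP1, HERPUD1, SEL1L, EDEM1, ATF6 and ERN1. HERPUD1 (66.8 ± 10.9 TPM, SD, n = 28) and SEL1L (64.5 ± 11.4 TPM, SD, n = 28) did not differ beyond their spread, taken as the larger SD, and every other pair of neighbours did. In MYC-ON, CANX (277 ± 29.7 TPM) and PDIA4 (262 ± 27.1 TPM) changed places and lay within their spread, as HERPUD1 (41.7 ± 6.11 TPM) and SEL1L (35.2 ± 8.12 TPM) did again. Together the 10 genes made up 2450 ± 152 TPM of the 1000000 in SHEP MYC-OFF and 1411 ± 96.1 TPM in MYC-ON (SD, n = 28 each), with no overlap of the ranges (2228 to 2920.3 and 1187 to 1554 TPM).

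The other genes of these pathways, in 9 lists written from general knowledge with earlier results known, also fell more often than they rose, apart from the PERK arm. Falls outnumbered rises over all genes tested in SHEP too, at 38.9% lower and 33.0% higher with a median of -0.04. The list counts below are to be read beside these shares. Of 20 ER chaperones and cochaperones tested in SHEP, 17 were called lower and 1 higher, with a median log2 difference of -0.53. HSPA5 (BiP, the main Hsp70 of the ER) went from a mean of 382 to 255 TPM, a difference of -0.57 ± 0.05 (SE, adjusted p = 2.22e-15). HSP90B1 (GRP94) went from 629 to 527 TPM (-0.26 ± 0.04). The largest falls were those of DNAJB9, a cochaperone of BiP (-1.14, 29.5 to 12.9 TPM), and FKBP9, a prolyl isomerase (-1.05, 205 to 98.8 TPM), while SEC63 was the 1 that rose (0.34).

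All 10 genes of the glycoprotein folding cycle were called lower, with GANAB, the catalytic subunit of glucosidase II (-0.55), and MOGS, glucosidase I (-0.47), falling most. With the library median as a covariate 6 of the 10 were called lower, where 4787 of all 14362 genes were. Of 24 ERAD genes tested, 17 were lower and 3 higher. The lectins OS9 (-0.93, 141 to 73.5 TPM) and ERLEC1 (-0.83, 62.0 to 34.4 TPM) fell most, SYVN1, the ligase that works with SEL1L, fell by 0.18, and AUP1 (0.65) and UBE2G2 (0.44), which act in ubiquitination, rose most. Disulfide isomerases and oxidases were mixed, 10 lower and 4 higher of 18. ERO1B, an oxidase that recharges the isomerases (-0.74), and QSOX1 (-0.50) fell, whereas QSOX2 (0.85) and PDIA5 (0.56) rose.

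In the translocon and signal peptidase list 9 genes were lower and 4 higher of 16, among them TRAM1 (-0.68) and SRPRA (-0.58) down and SSR3 (0.49) and SPCS1 (0.29) up. With median-of-ratios rescaling it was 7 lower and 6 higher, where 5139 and 5166 of all 14362 genes were. Of 12 oligosaccharyltransferase genes 8 were lower, led by MAGT1 (-0.77) and OSTC (-0.65), and 1 was higher, STT3B (0.18), a catalytic subunit. Of 14 genes of collagen folding 10 were lower, led by P4HA2, a collagen prolyl hydroxylase (-1.47, 114 to 40.8 TPM), and SERPINH1, the collagen chaperone HSP47 (-1.18, 270.3 to 119 TPM), and FKBP11 was higher (0.47). The list medians of these were -0.17, -0.31 and -0.48.

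The stress sensors and their processing enzymes had 7 lower and 1 higher of 11. CREB3L1 (-1.41, 65.8 to 24.4 TPM) and CREB3 (-0.96), membrane-bound relatives of ATF6, fell most, EIF2AK3, which encodes PERK, fell by 0.50 (11.3 to 7.71 TPM), and NFYC rose (0.17). The PERK arm went the other way. Of its 7 genes 6 were called higher and 0 lower, with a median of 0.71. Without series 2 this became 3 higher and 1 lower, with a median of 0.25, as DDIT3 (0.25, adjusted p = 0.131, limma), CHAC1 (0.05) and SESN2 (0.12) were not called and PPP1R15A was lower (-0.53). Without series 1 it was 6 and 0, with a median of 0.88. ATF4, the factor translated when PERK or another kinase phosphorylates eIF2, rose from 91.3 to 151 TPM (0.72 ± 0.06, SE, adjusted p = 4.17e-15). Its partner and target DDIT3 (CHOP) rose from 27.3 to 50.6 TPM (0.71 ± 0.16, SE, adjusted p = 0.000136). TRIB3 (1.07) and ATF3 (0.94) rose most.

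**Figure D2:**
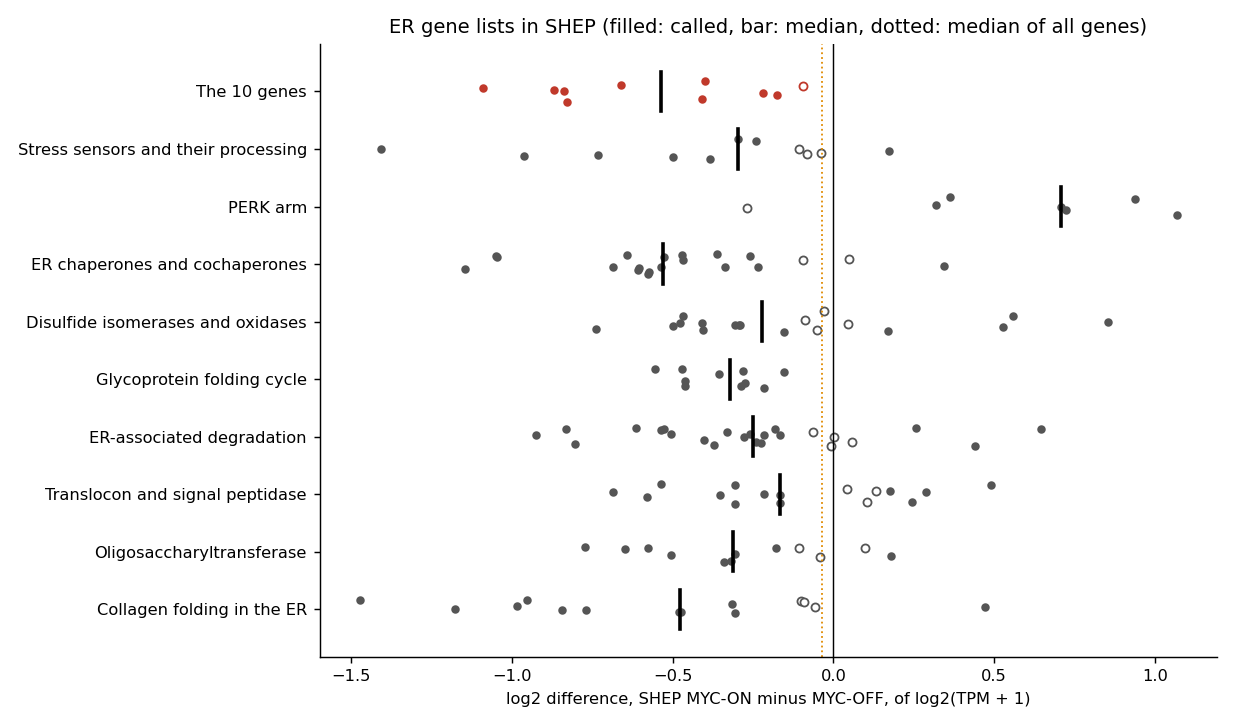
Log2 difference between SHEP MYC-ON and MYC-OFF of every tested gene in the 10-gene set and in 9 lists of ER genes, with filled points for genes called, a bar at each list's median and a dotted line at the median of all genes. Most points of the folding, degradation and collagen lists lie left of 0, and the PERK arm has its median at 0.71 (0.25 without series 2).

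Genes whose windows held ERSE were also counted. The motif itself uses no expression value, but it was chosen with earlier results of these data known. The count overlaps the 10 genes and the lists above. Of 25 such genes 17 were tested in SHEP, 12 were called lower and 2 higher, and their median was -0.40. Besides XBP1, CALR, CANX and PDIA6, they included HSPA5, HSP90B1, CRELD2 (-1.05) and ERO1B, which the lists above also hold, all lower. Of the tested ERSE genes outside the 10 and the lists, FICD (-0.73), SYNPO (-2.34), TMEM120A (-0.71) and TRIM5 (-0.20) were lower. EIF2A (0.44) and NLRP4 (0.55) were higher, and ALG12 (-0.13), SERP1 (0.07) and ZNF17 (-0.07) were not called. Of 13 tested genes with ERSE-II, 7 were lower and 5 higher, with HERPUD1, HYOU1 (-0.34) and SDF2L1 (-0.23) among the lower. Of 344 tested genes with the UPRE core 141 were lower and 106 higher, and of 1298 with an E-box 473 and 486, beside 38.9% lower and 33.0% higher of all genes. Of the 10 genes, ATF6 (-0.10), ERN1 (-0.22), EDEM1 (-0.84), SEL1L (-0.87) and PDIA4 (-0.83) held none of the motifs searched in their windows.

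Markers of secretory cells, which are rich in ER, were also looked at. SDC1 was the only 1 of 4 that reached a mean of 1 TPM, and it went from 231 to 88.4 TPM in SHEP (-1.46). The means of MZB1 and JCHAIN were below 1 TPM, and PRSS1 was at 0 in every SHEP library. The summed level of the list ran from 202 to 259 TPM in MYC-OFF and from 33.2 to 147 TPM in MYC-ON. Of 12 markers of other cell types 3 reached a mean of 1 TPM in SHEP, CD68, KRT8 and KRT18, with a summed level of 1177 to 2891 TPM in MYC-OFF and of 1289 to 2155 TPM in MYC-ON. CD68 fell (-0.96), and KRT8 (-0.13) and KRT18 (-0.01) were not called. Of the 7 mesenchymal markers 4 were lower in SHEP MYC-ON, FN1 (-2.24, 340 to 67.8 TPM), SNAI2 (-0.70), NOTCH2 (-0.50) and YAP1 (-0.26), PRRX1 was higher (1.61, 0.633 to 4.11 TPM), and VIM (-0.01) and CD44 (0.10) were not called. Their summed level ran from 3939.5 to 5263 TPM in MYC-OFF and from 3266 to 4849 TPM in MYC-ON. Of the 7 adrenergic markers 2 were tested in SHEP, with 1 called higher and 0 lower in MYC-ON. The summed level of these 7 ran from 28.2 to 43.8 TPM in MYC-OFF and from 37.6 to 55.7 TPM in MYC-ON. In bulk RNA, fewer cells of a type and less RNA per cell cannot be told apart, and their part in these falls was not tested.

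In SKNAS, 7 of the 10 genes were called lower in MYC-ON and 0 higher, beside 34.4% lower and 13.7% higher of 13886 genes tested. The median of all genes was itself at -0.29, and that of the 10 genes at -0.88. No gene of the 10 separated all MYC-ON from all MYC-OFF libraries, which 2.09% of genes did by being lower. HERPUD1, the ERAD scaffold, came closest. It ran from 32.6 over 53.7 to 60.04 TPM in the 14 MYC-OFF libraries and from 17.6 over 21.4 to 35.3 TPM in the 13 MYC-ON libraries, and was lower in 13 of 13 pairs. Its log2 difference was -1.05 ± 0.13 (SE, adjusted p = 1.26e-05). CALR ran from 326 over 889 to 1108 TPM in MYC-OFF and from 235 over 461 to 621 TPM in MYC-ON (-0.88 ± 0.13, SE, adjusted p = 7.24e-05). PDIA4 ran from 130.4 over 465 to 562 TPM and from 81.4 over 218 to 405 TPM (-0.87 ± 0.18, SE, adjusted p = 0.00112). EDEM1, low in this line, ran from 2.13 over 6.77 to 10.4 TPM and from 1.15 over 2.44 to 6.24 TPM (-0.91 ± 0.21, SE, adjusted p = 0.00231).

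SEL1L (-1.22), XBP1 (-0.35) and PDIA6 (-0.37) were the other genes called lower in SKNAS, whereas CANX (-0.95, adjusted p = 0.0537), ATF6 (-0.44) and ERN1 (0.04) did not pass. The level of each gene went with the library median. Within conditions, the correlation over the 27 SKNAS libraries of log2(TPM + 1) with that median, given as a description, lay between 0.72 for HERPUD1 and 0.99 for CANX, and the points share the library and its scaling. CANX ran from 19.2 to 141 TPM in the 10 MYC-ON libraries with a median below 3.8 and from 215 to 417 TPM in the other 3. Of the 14 libraries below 3.8, 10 were MYC-ON.

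**Figure D3:**
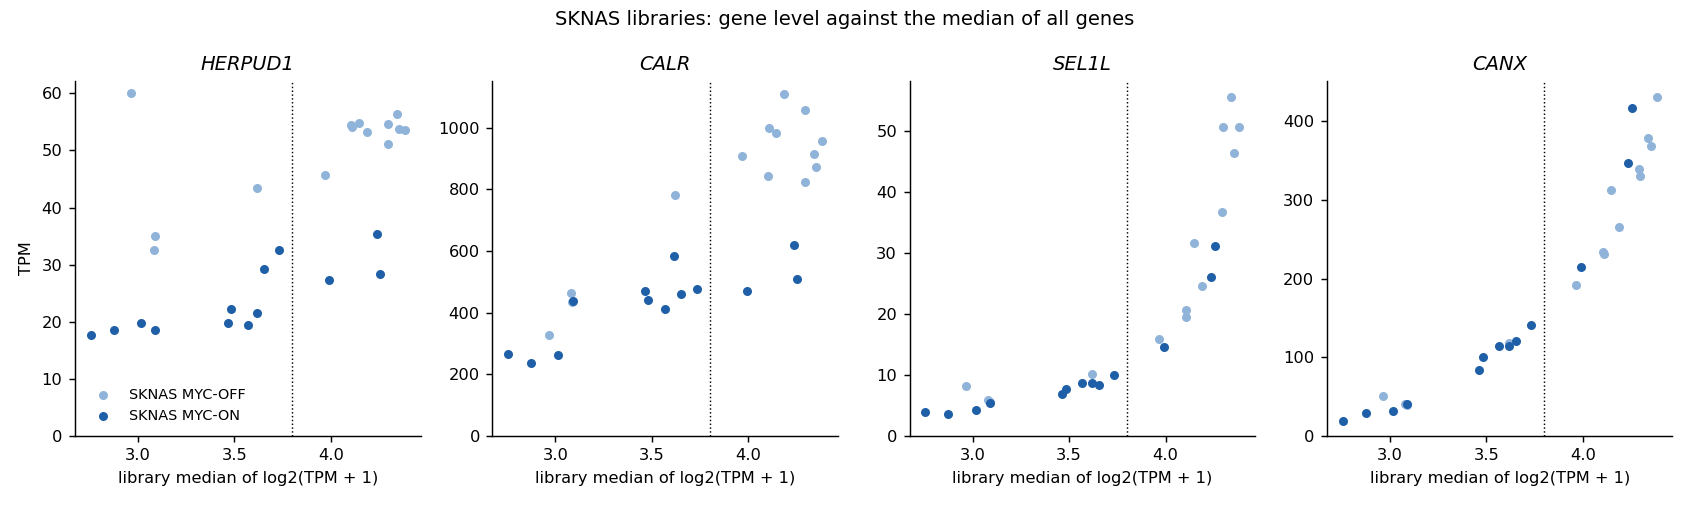
TPM of HERPUD1, CALR, SEL1L and CANX in the 27 SKNAS libraries against the library median of log2(TPM + 1), with a dotted line at 3.8. To the right of the line the MYC-ON points of HERPUD1 and CALR lie below all MYC-OFF points, and those of SEL1L and CANX lie among them or close by.

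With the library median as a covariate, 4 genes were called lower in SKNAS, HERPUD1 (-0.83), CALR (-0.64), PDIA4 (-0.47) and EDEM1 (-0.41), and ERN1 was called higher (0.44, adjusted p = 0.0359). Over all genes 26.1% were then lower and 28.3% higher. The same 4 were the genes lower among the 13 libraries with a median of at least 3.8, when the time points were left out of the fit. There HERPUD1 ran from 45.7 to 56.3 TPM in MYC-OFF and from 27.4 to 35.3 TPM in MYC-ON, and CALR from 825 to 1108 TPM and from 470 to 621 TPM, with no overlap in either. With the time points kept, that fit had 1 residual degree of freedom and called none. SEL1L was not called with the covariate (-0.41, adjusted p = 0.0594), and XBP1 stood at -0.10.

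**Figure D4:**
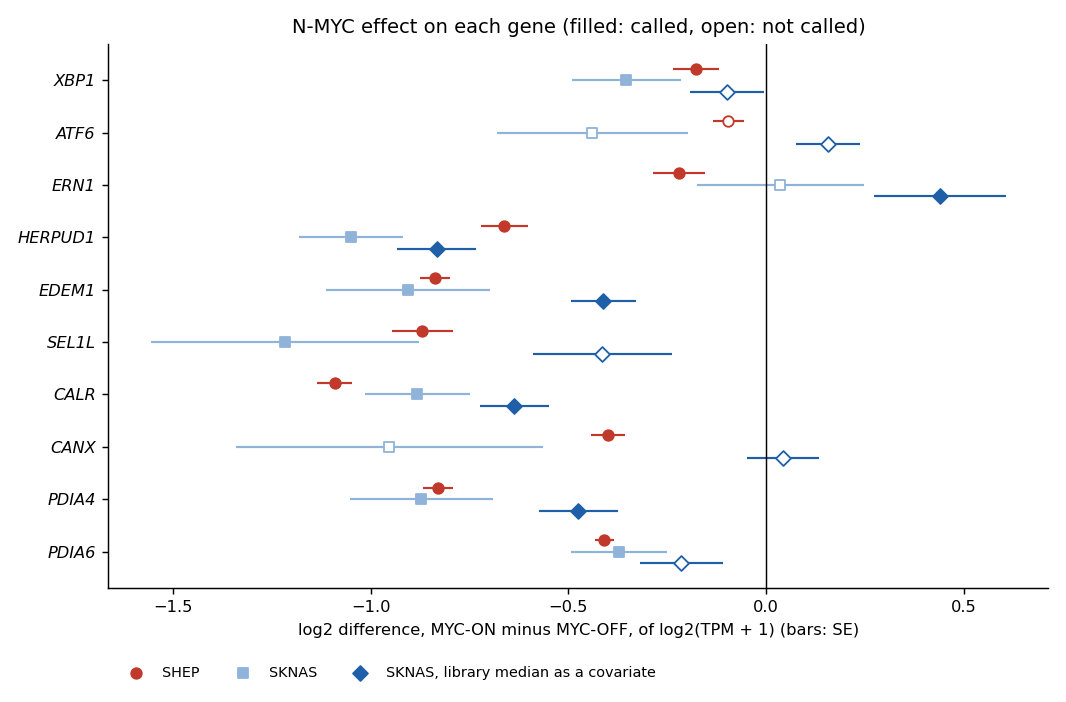
Log2 difference between MYC-ON and MYC-OFF (x axis, bars are SE) of each gene in SHEP, in SKNAS, and in SKNAS with the library median as a covariate. HERPUD1, EDEM1, CALR and PDIA4 are filled, that is called, and left of 0 in all 3 fits, while CANX and ATF6 move to the right of 0 in SKNAS with the covariate.

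Of the other ER genes in SKNAS, the PERK arm again had TRIB3 (0.83), DDIT3 (0.78) and ATF4 (0.44) higher, but SESN2 (-0.58) and PPP1R15A (-0.55) were lower and ATF3 stood at -0.13 (adjusted p = 0.706). HSPA5 was lower (-0.70, and -0.50 with the covariate), as were DNAJB9 (-1.0 and -0.65), EIF2AK3 (-1.22 and -0.48) and OS9 (-0.84 and -0.59). The list counts that follow are to be read beside the shares of all 13886 genes. These were 34.4% lower and 13.7% higher without the covariate, and 26.1% lower and 28.3% higher with it. With median-of-ratios rescaling 3314 genes were lower and 3831 higher. Of 20 chaperones and cochaperones 9 were lower and 0 higher, with the covariate 11 and 2, and with rescaling 5 and 1. In the glycoprotein folding cycle 2 of 9 were lower, with the covariate 1 was lower and 1 higher, and with rescaling 0 were called. SERPINH1 stood at 411 TPM in MYC-OFF and 572 TPM in MYC-ON (0.49, adjusted p = 0.0777). All 4 adrenergic markers tested in SKNAS were lower in MYC-ON, with a summed level of 260.5 to 588 TPM in MYC-OFF and 82.2 to 253.5 TPM in MYC-ON. The 7 mesenchymal markers were mixed. Of 13 pairs, MYC-ON was higher in 12 for CD44 and in 9 each for VIM and NOTCH2. It was lower in 13 for FN1, 10 each for SNAI2 and YAP1, and 9 for PRRX1. Their summed level ran from 775 to 2057 TPM in MYC-OFF and from 662 to 2597 TPM in MYC-ON. All 4 markers of other cell types tested in SKNAS, CD68, PTPRC, KRT8 and KRT18, were lower in MYC-ON, and the summed level of the 12 ran from 685 to 1249 TPM in MYC-OFF and from 340.5 to 527 TPM in MYC-ON. Of the 12, 4 reached a mean of 1 TPM in MYC-OFF and 5 in MYC-ON. A marker that the filter left out went the other way, higher in MYC-ON in 13 of 13 pairs. CD3E was at 0 in every SKNAS library. The part of these in the falls was not tested.

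The size of the N-MYC effect was compared between the lines by an interaction over all 83 libraries. HERPUD1 was the 1 gene called, with a fall larger in SKNAS by 0.39 ± 0.12 on the log2 scale (estimate -0.39, adjusted p = 0.00493), beside 38.1% of genes lower and 13.4% higher. The median interaction of all genes was itself at -0.22, and 34.8% of genes had a lower estimate than HERPUD1. With the library median as a covariate HERPUD1 was not called (-0.24, adjusted p = 0.083). Then 7 of the 10 were called, all with positive estimates, among them ERN1 (0.60), CALR (0.40), EDEM1 (0.34) and PDIA4 (0.28), beside 24.7% of genes higher and 22.1% lower. The estimates of CANX (-0.55 to 0.26) and ATF6 (-0.34 to 0.16) changed sign with it.

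Between the lines, the 10 genes were mostly lower in SKNAS. The lines come from separate time series, and line and series cannot be told apart. In MYC-OFF 8 genes were called lower in SKNAS and 1 higher, beside 46.4% and 32.1% of 14926 genes tested. EDEM1 differed most, at a mean of 44.8 TPM in SHEP and 6.43 TPM in SKNAS (-2.75 ± 0.12, SE, adjusted p = 7.83e-20). XBP1 (-1.39), SEL1L (-1.52) and ERN1 (-1.20) were also lower. PDIA6 was the 1 that was higher, at 159.9 TPM in SHEP and 293 TPM in SKNAS (0.85 ± 0.06, SE, adjusted p = 1.15e-13), and ATF6 was not called (-0.12). PDIA4 was lower (-0.32) but stood at 0.06 among the SKNAS libraries with a median of at least 3.8, where ATF6 was called higher. Over the fits run, the estimate of ATF6 went from -0.18 to 0.31.

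In MYC-ON 9 genes were called lower in SKNAS and PDIA6 higher (0.88), beside 58.3% lower and 26.0% higher of 14620 genes tested. EDEM1 was again the lowest (-2.83), followed by SEL1L (-1.84), CANX (-1.55) and XBP1 (-1.53). Only EDEM1, XBP1 and HERPUD1 were called lower among the libraries with a median of at least 3.8, ATF6 was then higher (0.70, against -0.48), and CANX stood at 0.18. The order of the levels in SKNAS MYC-OFF was CALR, PDIA4, PDIA6, CANX, HERPUD1, XBP1, SEL1L, ATF6, EDEM1 and ERN1, with PDIA4 to CANX and XBP1 to ATF6 within their spread. In SKNAS MYC-ON it was CALR, PDIA6, PDIA4, CANX, XBP1, HERPUD1, ATF6, SEL1L, EDEM1 and ERN1, and each gene lay within the spread of the next one except CALR and HERPUD1. For CANX (136.5 ± 122.7 TPM) and XBP1 (24.75 ± 5.54 TPM, SD, n = 13) this came from the wide SD of CANX. That SD is the spread between libraries, and the genes were not compared within a library.

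Over circadian time, a linear trend per 24 h was fitted with the series as a block. In SHEP MYC-OFF, XBP1 (-0.11 ± 0.04), HERPUD1 (-0.16 ± 0.05) and EDEM1 (-0.11 ± 0.03) were called falling, and PDIA4 (0.08 ± 0.02) and PDIA6 (0.07 ± 0.02) rising (SE, limma adjusted p between 0.00299 and 0.0301). Of all genes 10.0% fell and 5.71% rose. None of these 5 was called in either series alone. In SHEP MYC-ON, EDEM1 (-0.22 ± 0.04, adjusted p = 1.46e-05), PDIA4 (-0.17 ± 0.03, adjusted p = 3.67e-05) and CALR (-0.15 ± 0.03, adjusted p = 0.000234) fell and HERPUD1 rose (0.18 ± 0.05, adjusted p = 0.00146), beside 37.3% of genes that fell and 19.9% that rose. Without series 2, 0 of the 10 genes were called rising in MYC-ON. HERPUD1 (0.08 to 0.27) and CALR (-0.25 to -0.06) were each called in 7 of 8 fits, and EDEM1 and PDIA4 in all 8.

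The trends of MYC-ON and MYC-OFF themselves differed in 4 genes. HERPUD1 (0.34 ± 0.07, adjusted p = 4.26e-05) and XBP1 (0.22 ± 0.06, adjusted p = 0.00466) rose in MYC-ON relative to MYC-OFF, and PDIA4 (-0.25 ± 0.03, adjusted p = 4.21e-08) and CALR (-0.17 ± 0.04, adjusted p = 0.000103) fell relative to it, beside 16.1% and 27.3% of genes. At CT24 HERPUD1 stood at 66.3 and 67.2 TPM in MYC-OFF and at 38.2 and 30.3 TPM in MYC-ON (series 1 and 2), and at CT76 at 57.1 and 57.9 TPM and at 49.4 and 62.9 TPM, so that its groups met at the end. PDIA4 went from 437 and 420.0 TPM to 511 and 476 TPM in MYC-OFF and from 297 and 293 TPM to 243 and 199 TPM in MYC-ON, so that its groups moved apart. CALR went from 628 and 620.3 TPM to 571 and 400.4 TPM in MYC-ON. XBP1 had its highest SHEP value, 134 TPM, at CT76 of series 2 in MYC-ON, where HERPUD1 and ERN1 had their highest MYC-ON values too. Without that library the differences of trend were 0.30 for HERPUD1 and 0.15 for XBP1, and both stayed called. Without series 2 those of XBP1 (0.10) and CALR (-0.06) were not called.

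**Figure D5:**
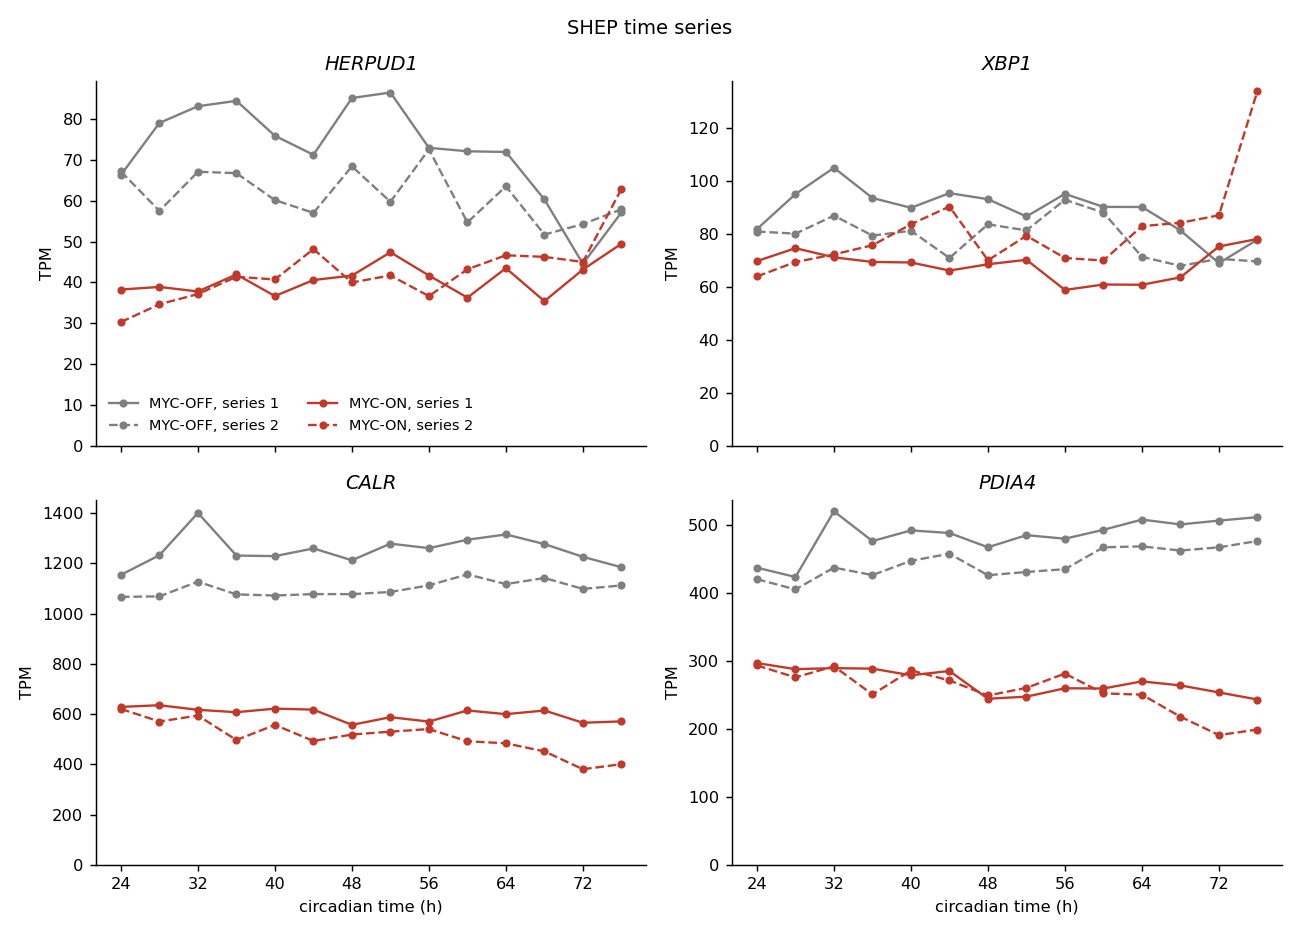
TPM of HERPUD1, XBP1, CALR and PDIA4 against circadian time (h) in the 2 SHEP series of MYC-OFF and MYC-ON. HERPUD1 starts apart and meets at CT76, CALR and PDIA4 stay apart and diverge, and XBP1 shows the single high MYC-ON value of 134 TPM.

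In SKNAS no trend of the 10 genes was called, with 0% of genes called in MYC-OFF and 0.0936% in MYC-ON, nor did any trend differ between conditions (0.0792% of genes). At an unadjusted limma p under 0.05 these fits held 5076, 845 and 402 genes. EDEM1 in MYC-OFF stood at -0.65 ± 0.20 per 24 h (SE, adjusted p = 0.131), and at -0.20 with the library median as a covariate. With that covariate ERN1 (0.41) and PDIA4 (-0.43) were called in MYC-ON.

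No 24 h rhythm of the 10 genes was called by the limma cosinor in any group. Of all genes tested, 0.0627% were called in the MYC-OFF and 0.0139% in the MYC-ON libraries of SHEP, and 0% in both SKNAS groups. At an unadjusted p under 0.05 the fits held 1413 and 1254 genes in SHEP and 60 and 46 genes in SKNAS. Among the 10, XBP1 in SHEP MYC-OFF had the smallest p (unadjusted 0.00605, adjusted 0.34, limma), with an amplitude of 0.10 on the log2 scale and a peak at 9.96 h of the 24 h cycle. The difference of rhythm between MYC-ON and MYC-OFF was called for none of the 10 and for 0% of genes in SHEP and 0% in SKNAS, with 709 and 73 genes at an unadjusted p under 0.05. For XBP1 in SHEP its unadjusted limma p was 0.0277 and its adjusted p 0.954. At this spread a rhythm was not detectable, which does not show that there is none.

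Correlations between the members ran from -0.52 to 0.83. They were taken over the 56 SHEP libraries, as Pearson's r of log2(TPM + 1) after the mean of each condition was removed. They are a description, since the libraries share time points and scaling, and differences between the series and trends over time were left in. XBP1 (134 TPM) and HERPUD1 (62.9 TPM) also had their highest MYC-ON values in the same library, CT76 of series 2. CALR and PDIA4 went together most (0.83), then XBP1 and HERPUD1 (0.75), PDIA4 and PDIA6 (0.58), CALR and PDIA6 (0.55) and EDEM1 and PDIA4 (0.55). XBP1 and PDIA4 (-0.36), HERPUD1 and PDIA4 (-0.35) and ATF6 and CALR (-0.52) went against each other.

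The 3 genes most like each member other than EDEM1 were found by the same measure over these 56 libraries. For XBP1 they were TRIB3 (0.81), HERPUD1 (0.75) and SESN2 (0.71), where TRIB3 and SESN2 are genes of the PERK arm, and for HERPUD1 they were XBP1, ADM2 (0.73) and CBS (0.72). For PDIA4 they were CALR, PPIB, a prolyl isomerase of the ER (0.79), and LAPTM4A (0.79). For CALR they were PAGE2 (0.88), PAGE2B (0.86) and S100A3 (0.86), and for PDIA6 they were ERLEC1, the ERAD lectin (0.68), FUCA1 (0.67) and RPL24 (0.65). For SEL1L they were MYOF (0.76), SCRN1 (0.73) and FOXJ2 (0.71), and for CANX PPP2R2C (0.76), WDR1 (0.73) and OSMR (0.70). ATF6 was most like ZNF507 (0.87), ANKIB1 (0.86) and DENND4C (0.85), and ERN1 like AC018638.5 (0.58), ZXDC (0.57) and PTPRF (0.57).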

How the data were processed

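Polyadenylated RNA of 83 libraries had been sequenced as paired ends. The authors quantified reads with Salmon 1.3.0 against a GRCh38 transcriptome and summed them to genes with Tximport, and the deposited values are TPM, 1 per gene and library, for 60237 genes with 961 entries that repeat a symbol. Each library sums to 1000000, so no depth is kept and no counting error can be given. TPM are not counts, so the authors' DESeq2 model of counts was replaced by limma 3.58.1 (R 4.3.3) on log2(TPM + 1), with each time point as a replicate and CT as a factor in the level comparisons. Genes with a mean of at least 1 TPM over the libraries fitted were tested. P-values were adjusted over all tested genes by Benjamini and Hochberg. A level was called where this p did not exceed 0.05 and the log2 difference reached 0.15, and a trend or rhythm on p alone. All fold changes are on this log2 scale and understate changes of low genes. Scripts were tested on simulated data.

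The 10 genes, the lists and the motifs were chosen with earlier results of these data known. Named beside the 10 genes are, per list, the 2 called genes with the largest rise and fall in SHEP, together with HSPA5, HSP90B1, EIF2AK3, ATF4, DDIT3, DNAJB9 and SYVN1, and genes that a motif or a contrast between lines singled out after their values were seen. Positions came from Gencode 44 and promoters from RefSeq. SHEP replicate numbers mark the 2 repeat experiments. Deviations of series 1 from series 2 correlated between MYC-OFF and MYC-ON at 0.49 over genes (0.04 to 0.30 at single time points). Alternatives were a pseudocount of 0.1, no filter, median-of-ratios rescaling, the library median as a covariate, the replicate block, series means as replicates, leaving out a series, and SKNAS libraries with a median of at least 3.8. Figures were drawn with matplotlib 3.10.9. No other cell line was analysed here. The genes most like EDEM1 and the level of 1 marker are not reported here.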

Additional observations from a re-analysis of the deposited data

Results flagged for a closer look

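In 5 cases an effect on 1 of the 10 genes differed between groups by a test of the difference itself. Such calls were common: over all genes the interaction was called lower in 38.1% and higher in 13.4%. The difference of trend in SHEP was called higher in 16.1% and lower in 27.3% of all genes. The fall of HERPUD1 in MYC-ON was larger in SKNAS than in SHEP (interaction -0.39, adjusted p = 0.00493, limma), but was not called with the library median as a covariate (-0.24), with rescaling (-0.12), among SKNAS libraries with a median of at least 3.8 (-0.12) or without SHEP series 2 (-0.26), and was called without series 1 (-0.52). The median interaction of all genes was -0.22. The trend over circadian time in SHEP differed between MYC-ON and MYC-OFF for XBP1 (0.22 per 24 h on the log2 scale), HERPUD1 (0.34), CALR (-0.17) and PDIA4 (-0.25). HERPUD1 and PDIA4 were called under every alternative run, XBP1 and CALR under all but the fit without series 2 (0.10 and -0.06).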

How the results depend on the processing

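Of the 9 genes called lower in SHEP, 7 were called lower under every alternative, and XBP1 ran from -0.37 to 0.0193 without 1 series in turn. With the replicate block the count stayed at 9 of 10. The trend and rhythm fits hold the series as a block, and without it the genes called were 3 in place of 5 for the SHEP MYC-OFF trend, 4 and 4 for the MYC-ON trend and the difference of trend, and 0 for each rhythm. The MYC-OFF trend called 2 with rescaling and 0 to 1 without a series, the MYC-ON trend 8 with rescaling in place of 4, and the difference of trend 2 to 4 without a series. Over all 14362 genes the MYC-ON trend called 8088 with rescaling in place of 8226, and the MYC-OFF trend 2158 with rescaling. The difference of trend called 4392 to 4593 of all genes without a series. For SKNAS the 7 genes called became 0 among libraries with a median of at least 3.8, and 4 there without CT in the fit (an alternative chosen after seeing the data, as was leaving out CT76 of SHEP series 2). With rescaling XBP1 and PDIA6 in SKNAS moved to 0.00926 and 0.00202. The interaction called 4 genes with rescaling, 7 with the covariate and 0 to 1 without a SHEP series, in place of 1. Of all 14870 genes it called 7450 with rescaling and 6966 with the covariate. For SKNAS against SHEP, PDIA4 in MYC-OFF moved to 0.0638 with libraries of at least 3.8, where ATF6 was called higher. With the same limit the 10 calls in MYC-ON became 5. There ATF6 went to 0.48 with the covariate and 0.70 with libraries of at least 3.8, CANX to 0.18 with the latter, CALR to 0.10 with rescaling, and PDIA4 to 0.12, 0.24 and 0.22 with rescaling, the covariate and libraries of at least 3.8. The SKNAS MYC-ON trend called 2 with the covariate. Over all genes the calls went from 6675 to 1254 for SKNAS and from 7655 to 2205 for the interaction with libraries of at least 3.8 (4602 to 4767 without a SHEP series), and from 2259 to 240 for the MYC-OFF trend without series 1. Causes were not tested. Depth is unknown, so the precision of a single TPM value is too, and only 1 SKNAS series was analysed here.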

Other observations

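SERPINH1 (HSP47), which fell in SHEP MYC-ON (-1.18), stood higher in SKNAS MYC-ON (0.49, not called, and 0.99 with the library median as a covariate). The interaction was 1.67 (adjusted p = 6.99e-15, limma) and lay between 1.66 and 2.06 over its alternatives. ATF3 differed the other way, at 0.94 in SHEP and -0.13 in SKNAS (interaction -1.07, adjusted p = 4.18e-05), but was called higher in SKNAS with the covariate (0.50, adjusted p = 0.00714). FKBP11 was higher in MYC-ON in both lines (0.47 and 0.51) and stood at a mean of 5.50 TPM in SHEP MYC-OFF and 68.8 TPM in SKNAS MYC-OFF.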
